A study of Mus musculus with 8 samples.

Results

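Cholesterol synthesis in mouse liver was followed through 27 genes, taken by gene symbol from 21878 genes in the deposited count table. They comprised 2 genes that handle acetyl units, 7 enzymes from mevalonate formation to squalene, 1 enzyme at the farnesyl branch point, 11 enzymes after squalene, 2 genes of sterol transport and uptake, and 4 regulators. All 27 had rows in the count and FPKM tables, and all 27 were among the 14726 genes that passed the filter on low counts. The list does not hold every gene of the pathway.

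The pathway condenses acetyl units into mevalonate, activates it to isopentenyl units and joins these through farnesyl diphosphate into squalene. Squalene is then oxidised and closed into lanosterol, and a series of sterol enzymes removes methyl groups and moves double bonds until cholesterol is formed. SREBP2, encoded by Srebf2, is the transcription factor best known for activating these genes when membrane sterol is low. SCAP escorts it out of the endoplasmic reticulum, and the INSIG proteins hold it back when sterol is plentiful. Liver is a main site of cholesterol synthesis, and most of the enzymes are made in hepatocytes.

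The libraries came from liver of C57BL/6 mice, with an age of 14 to 16 days given in the labels for tumor and normal liver alike. They fell into 2 tumors from mice with the genotype nfib-/-, named nfib-KO here (replicates 2 and 3), 3 wild-type (WT) tumors (replicates 1, 2 and 3), 1 nfib-KO normal liver (replicate 3) and 2 WT normal livers (replicates 2 and 3). The nfib-KO mice carried floxed Nfib alleles and Alb-Cre, a recombinase driven by the albumin promoter, so that the deletion was aimed at hepatocytes. Nfib is a nuclear factor I gene coding for a DNA-binding protein, and the series title concerns its loss in hepatocytes, liver tumors and the urea cycle. The labels do not name an agent or allele that gave rise to the tumors, and they do not state that the libraries came from separate animals, so p-values measure only the spread between these libraries.

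Total counts ran from 11912549 to 19965842 per library. Nfib stood at 84.1 and 82.0 CPM (counts scaled to library size with TMM factors, the unit used throughout unless FPKM is named) in nfib-KO tumors 2 and 3, and at 64.8, 46.1 and 77.9 CPM in WT tumors 1, 2 and 3. It stood at 85.4 CPM in nfib-KO normal 3, against 87.6 and 79.4 CPM in WT normals 2 and 3. Nfib RNA was thus not lower in the libraries labelled nfib-KO, and gene counts that pool all exons do not test the floxed part alone, so nfib-KO and WT are the names of the labels throughout. Hepatocyte markers were high in every library, with a summed level over 8 genes of 35561 to 70002 CPM. The oncofetal gene Afp stood at 573 CPM in WT tumor 1 and 2345 CPM in WT tumor 2, against 1.11 to 17.5 CPM in the other 6 libraries. Skeletal muscle markers summed to 1669 CPM in nfib-KO tumor 2 and 643 CPM in nfib-KO normal 3, against 98.6 CPM or less elsewhere, and these 2 are called the muscle-rich libraries. Squamous epithelium markers summed to 453 CPM in nfib-KO tumor 2, against 3.36 CPM or less elsewhere. WT tumor 3 and WT normal 3 were the most alike of all pairs of libraries (Pearson r of log2 CPM across genes 0.990), but differed by more than counting noise, with a chi-square of 8.52 per degree of freedom. nfib-KO tumor 3 and nfib-KO normal 3 followed (r 0.982, chi-square 14.1 per degree of freedom). All comparisons draw on these 8 libraries and so share samples with each other.

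Promoter windows of 300 bases, from 250 bases before to 50 after the annotated start, were matched by symbol for 23 of the 27 genes (RefSeq, GRCm38.p6). Searched on both strands were CCAAT, the core bound by NF-Y, GGGCGG, a GC box bound by Sp-family factors, and TCACNCCAC, a sterol regulatory element type. CCAAT was in 20 of 23 windows (87.0%), beside 41.1% of 27025 genes with a window and 42.3% of those tested here. GGGCGG was also in 20 of 23, beside 38.2% of all genes and 63.9% of those tested. TCACNCCAC was found in 1 window, that of Hmgcs1, beside 1.44% of all genes. The 6 windows shown are those of 3 early enzymes and 1 late enzyme whose values are described below, of the regulator Insig1, and of Aacs, the only matched gene with none of the motifs. Each motif was counted on its own, overlapping matches included. Capitals mark every match on either strand, so that a match on the other strand reads ATTGG or CCGCCC, and all windows run 5′ to 3′ on the gene's own strand.
Hmgcs1 (chr13:119690101-119690400, plus strand): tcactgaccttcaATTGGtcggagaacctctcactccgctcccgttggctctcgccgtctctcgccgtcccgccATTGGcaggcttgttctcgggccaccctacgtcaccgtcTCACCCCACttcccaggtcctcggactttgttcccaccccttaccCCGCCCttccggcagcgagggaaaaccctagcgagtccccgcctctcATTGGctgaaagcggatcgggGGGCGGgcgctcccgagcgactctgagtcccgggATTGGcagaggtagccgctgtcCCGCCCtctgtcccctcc
Mvd (chr8:122443373-122443672, minus strand): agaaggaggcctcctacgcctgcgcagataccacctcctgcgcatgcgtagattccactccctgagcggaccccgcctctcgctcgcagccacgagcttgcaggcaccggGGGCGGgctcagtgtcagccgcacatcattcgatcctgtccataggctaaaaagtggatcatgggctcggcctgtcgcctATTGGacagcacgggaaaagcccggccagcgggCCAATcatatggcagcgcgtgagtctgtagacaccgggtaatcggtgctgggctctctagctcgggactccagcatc
Idi1 (chr13:8885356-8885655, plus strand): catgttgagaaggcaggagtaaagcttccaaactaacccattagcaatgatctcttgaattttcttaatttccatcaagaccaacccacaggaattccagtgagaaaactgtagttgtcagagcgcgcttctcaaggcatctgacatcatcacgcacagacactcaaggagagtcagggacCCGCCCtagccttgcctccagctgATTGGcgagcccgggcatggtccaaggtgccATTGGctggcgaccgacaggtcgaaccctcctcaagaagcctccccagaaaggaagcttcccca
Cyp51 (chr5:4104648-4104947, minus strand): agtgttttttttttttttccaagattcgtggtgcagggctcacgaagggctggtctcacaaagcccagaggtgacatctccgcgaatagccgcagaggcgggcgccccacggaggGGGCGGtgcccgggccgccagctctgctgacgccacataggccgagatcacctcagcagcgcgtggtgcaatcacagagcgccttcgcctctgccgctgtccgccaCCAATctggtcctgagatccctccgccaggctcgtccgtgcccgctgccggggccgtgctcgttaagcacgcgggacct
Insig1 (chr5:28071162-28071461, plus strand): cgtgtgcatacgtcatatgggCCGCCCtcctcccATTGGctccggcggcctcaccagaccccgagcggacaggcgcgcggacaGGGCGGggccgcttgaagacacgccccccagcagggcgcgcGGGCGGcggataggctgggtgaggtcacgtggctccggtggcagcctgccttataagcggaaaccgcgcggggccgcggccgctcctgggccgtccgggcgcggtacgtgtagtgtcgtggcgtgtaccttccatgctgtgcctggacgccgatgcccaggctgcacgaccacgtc
Aacs (chr5:125475623-125475922, plus strand): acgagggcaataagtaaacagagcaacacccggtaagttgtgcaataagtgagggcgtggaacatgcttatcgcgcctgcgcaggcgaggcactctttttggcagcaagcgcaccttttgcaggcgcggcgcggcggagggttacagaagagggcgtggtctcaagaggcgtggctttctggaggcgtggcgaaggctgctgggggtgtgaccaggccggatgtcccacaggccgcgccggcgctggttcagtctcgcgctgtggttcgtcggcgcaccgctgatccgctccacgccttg

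Hmgcs1, which forms the HMG-CoA from which mevalonate is made, had 4 CCAAT and 3 GGGCGG matches beside its sterol-type element. Mvd and Idi1 each had 2 CCAAT matches and 1 GGGCGG match. Cyp51 had 1 of each, and Insig1 had 1 CCAAT and 3 GGGCGG matches. A match describes the letters of the window only, and binding was not measured in these samples.

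On the length-scaled FPKM scale the 27 genes differed widely in level. Over the 8 libraries, Ebp averaged 140 ± 16.2 FPKM (SD, n = 8), Fdps 110 ± 48.7 FPKM, Insig1 95.1 ± 17.5 FPKM, Sc5d 94.8 ± 30.6 FPKM and Hmgcs1 94.1 ± 42.4 FPKM. Ebp moves a double bond in the sterol ring system, and Sc5d introduces one late in the pathway. At the low end stood Ggps1, which makes geranylgeranyl diphosphate for protein prenylation, with 1.73 ± 0.430 FPKM, and Lbr, a nuclear envelope protein with sterol reductase activity, with 3.60 ± 0.330 FPKM. The abundant Fdps and Hmgcs1 varied more between libraries, relative to their means, than the more abundant Ebp.

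Libraries differed in the whole set. The median deviation of the 27 genes from their own means on the log2 scale was 0.17 in nfib-KO tumor 2 and -0.03 in nfib-KO tumor 3, and 0.56, 0.33 and 0.07 in WT tumors 1, 2 and 3. It was -0.43 in nfib-KO normal 3, and -0.60 and 0.05 in WT normals 2 and 3. Over all tested genes the same median lay between -0.02 and 0.00 in every library. WT tumor 1 was the highest library for 16 of the 27 genes. WT normal 2 was the lowest for 13 and nfib-KO normal 3 for 7. The split by role followed the same libraries, with a median of 0.99 for the 7 enzymes up to squalene and 0.82 for the 11 enzymes after it in WT tumor 1, against -0.92 and -0.80 in WT normal 2. The 4 regulators spanned less, with medians of 0.30 in WT tumor 1 and -0.52 in WT normal 2.

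**Figure D1:**
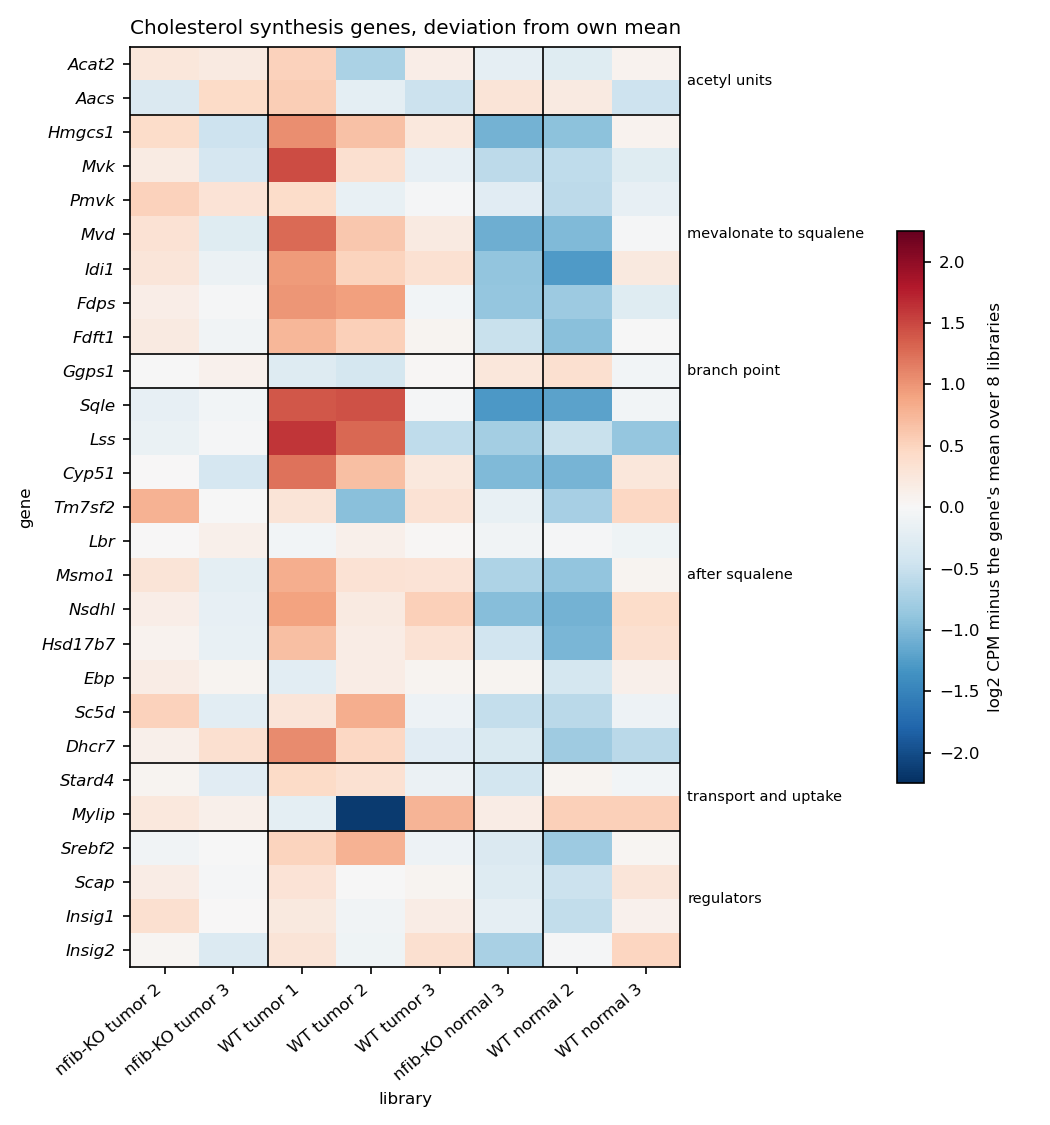
Each row is a gene, ordered by role, and each column a library; colour gives log2 CPM minus the gene's mean over the 8 libraries. Medians over the 27 genes are highest in WT tumors 1 and 2 (0.56 and 0.33) and lowest in nfib-KO normal 3 and WT normal 2 (-0.43 and -0.60), while single rows differ, as Tm7sf2 and Pmvk, highest in nfib-KO tumor 2, and Mylip, lowest in WT tumor 2.

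Most genes of the set had higher values in tumor than in normal liver, over both genotypes, although no gene passed the threshold. By edgeR's quasi-likelihood test with genotype as a second term, 25 of the 27 genes had positive log2 fold changes (tumor over normal), with a median of 0.58, beside 0.01 and 52.2% positive over all 14726 genes. With library totals in place of TMM factors 24 were positive, and Aacs was at -0.11. Of the 27 genes, 14 had an unadjusted p under 0.05, all higher in tumor, beside 259 of all tested genes (1.76%). The set was chosen with earlier results of these data known, and the 2 shares were not compared by a test. After Benjamini-Hochberg adjustment over all genes no gene was called (0%), and the lowest adjusted p among the 27 was 0.922. DESeq2 called 5 genes and limma-voom 0, none of them among the 27. In bulk tissue, fewer cells of a type and less RNA per cell cannot be told apart.

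All 7 enzymes from mevalonate to squalene were among the 14, with a median log2 fold change of 0.97. Fdps, which makes farnesyl diphosphate, stood at 165 and 145 CPM in nfib-KO tumors 2 and 3 and at 295, 280.4 and 142 CPM in WT tumors 1, 2 and 3, against 81.1 CPM in nfib-KO normal 3 and 83.9 and 123 CPM in WT normals 2 and 3. Every tumor library was above every normal library, and the log2 fold change was 1.11 ± 0.29 (SE; edgeR adjusted p = 0.922). Hmgcs1 stood at 419 and 228 CPM in nfib-KO tumors and 646, 492 and 372 CPM in WT tumors, against 151 CPM in the nfib-KO normal liver and 165 and 332 CPM in WT normal livers. Its groups overlapped, because nfib-KO tumor 3 lay below WT normal 3, and the log2 fold change was 1.05 ± 0.34. Mvd, which forms isopentenyl diphosphate, stood at 23.2 and 15.4 CPM in nfib-KO tumors and 44.9, 28.3 and 21.3 CPM in WT tumors, against 8.69 CPM in the nfib-KO normal liver and 9.36 and 18.1 CPM in WT normal livers. Here too nfib-KO tumor 3 lay below WT normal 3, with a log2 fold change of 1.18 ± 0.33.

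The other 4 enzymes of this stretch had log2 fold changes from 0.54 to 0.97. Idi1, which converts isopentenyl to dimethylallyl diphosphate, was at 0.97 ± 0.34, Mvk, the mevalonate kinase, at 0.91 ± 0.39, Fdft1, the squalene synthase, at 0.77 ± 0.26, and Pmvk, the phosphomevalonate kinase, at 0.54 ± 0.18. Pmvk was the smallest of them but had no overlap, with 52.1 and 44.7 CPM in nfib-KO tumors and 48.1, 32.2 and 35.5 CPM in WT tumors, against 30.6 CPM in the nfib-KO normal liver and 24.1 and 31.7 CPM in WT normal livers. Ggps1, which draws farnesyl diphosphate away from sterols, had the opposite sign at -0.32 ± 0.16, with 9.79 to 13.7 CPM in the 5 tumors and 12.3 to 16.6 CPM in the 3 normal livers. Its groups overlapped.

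After squalene, all 11 log2 fold changes were positive and 7 had an unadjusted p under 0.05. Sqle, the squalene epoxidase, stood at 66.3 and 72.8 CPM in nfib-KO tumors and 199, 205 and 74.6 CPM in WT tumors, against 30.9 CPM in the nfib-KO normal liver and 32.9 and 73.0 CPM in WT normal livers. WT tumors 1 and 2 were far above all other libraries, while the other 3 tumors were close to WT normal 3. The log2 fold change of Sqle was 1.44 ± 0.41, the highest of the 27 genes. Lss, which closes the sterol ring, stood at 65.9 and 71.6 CPM in nfib-KO tumors and 224, 179 and 49.1 CPM in WT tumors, against 43.1 CPM in the nfib-KO normal liver and 51.7 and 40.3 CPM in WT normal livers. Its log2 fold change was 1.32 ± 0.49, with WT tumor 3 below WT normal 2. Dhcr7, which catalyses a last reduction to cholesterol, stood at 97.5 and 116 CPM in nfib-KO tumors and 189.7, 125 and 75.8 CPM in WT tumors, against 71.2 CPM in the nfib-KO normal liver and 51.8 and 59.2 CPM in WT normal livers. Dhcr7 had no overlap, and its log2 fold change was 0.99 ± 0.31.

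The demethylating enzymes lay between. Cyp51, the lanosterol demethylase, was at 0.95 ± 0.35, Msmo1, a sterol methyl oxidase, at 0.81 ± 0.27, and Nsdhl, the dehydrogenase of the same steps, at 0.80 ± 0.34. Sc5d was at 0.71 ± 0.30. Hsd17b7, the 3-keto reductase, did not reach the unadjusted threshold at 0.51 ± 0.30. Small values were found for the reductase Tm7sf2 at 0.21 ± 0.41, Lbr at 0.11 ± 0.12 and Ebp at 0.10 ± 0.19. Lbr ranged only from 12.6 to 14.7 CPM over all 8 libraries, a ratio of 1.16 between highest and lowest. Tm7sf2, which has the same reductase activity as Lbr, ranged 3.29-fold, with 116 CPM in nfib-KO tumor 2 and 35.3 CPM in WT tumor 2 at the ends.

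None of the 4 regulators had an unadjusted p under 0.05 for tumor over normal liver. Srebf2 stood at 70.2 and 73.5 CPM in nfib-KO tumors and 105, 128 and 68.6 CPM in WT tumors, against 59.2 CPM in the nfib-KO normal liver and 42.0 and 76.9 CPM in WT normal livers. WT tumors 1 and 2 were above all other libraries, as for Sqle, and the log2 fold change was 0.58 ± 0.28. Insig1, itself a known SREBP target, was at 0.33 ± 0.21, Scap at 0.25 ± 0.20 and Insig2 at 0.17 ± 0.22. Acat2, the cytosolic acetoacetyl-CoA thiolase, was at 0.25 ± 0.27, an uncertain value because the neighbouring Acat3 is a close copy and the counting of shared reads is not given in the sources used here. Aacs, which activates acetoacetate, was at 0.01 ± 0.30. Stard4, a cytosolic sterol carrier, was at 0.26 ± 0.17. Mylip, also called Idol, the ubiquitin ligase that lowers lipoprotein receptors, was at -0.42 ± 0.53. It stood at 21.5 and 19.7 CPM in nfib-KO tumors and 15.7, 4.12 and 30.8 CPM in WT tumors, against 20.6 CPM in the nfib-KO normal liver and 26.3 and 26.6 CPM in WT normal livers, so that its lowest and highest values were both WT tumors.

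**Figure D2:**
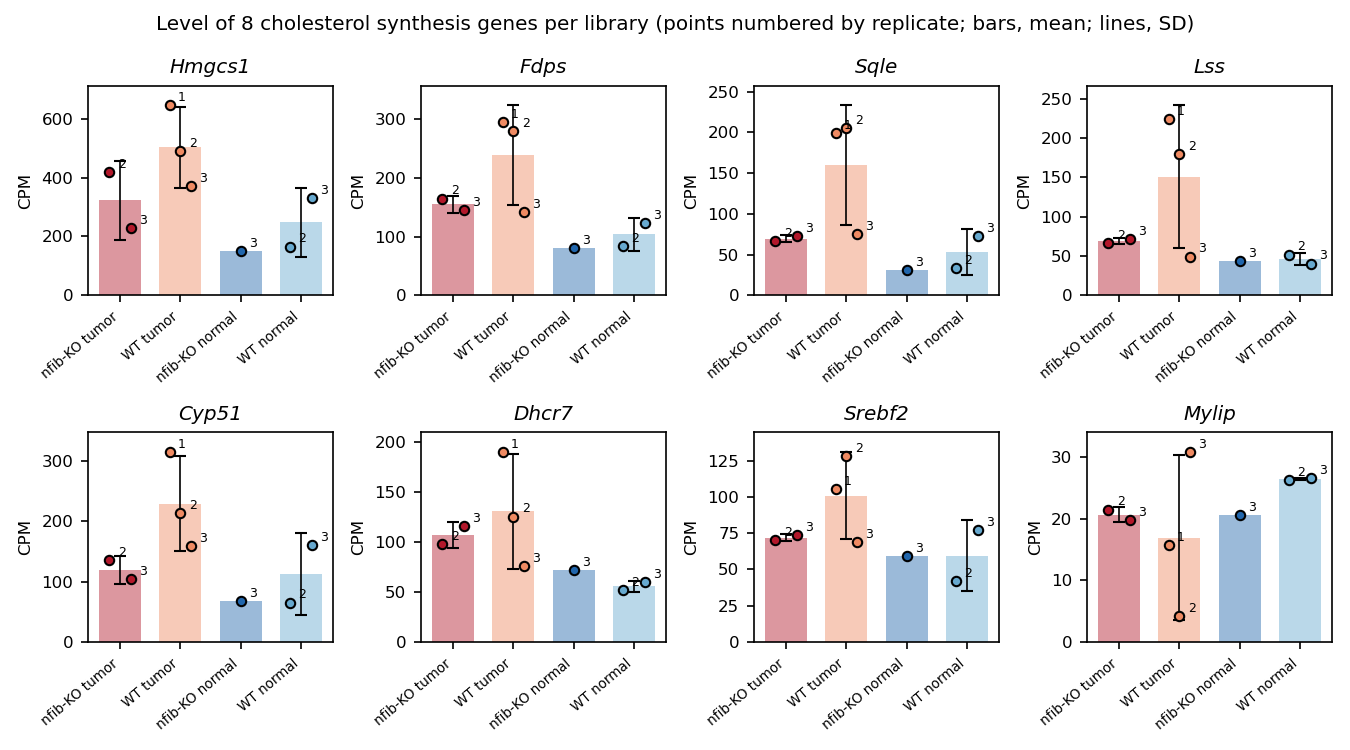
Points give CPM per library, numbered by replicate, for 8 genes in the 4 groups; bars are group means and lines are SD (the nfib-KO normal group is 1 library). For Sqle and Lss, WT tumors 1 and 2 lie at 179 to 224 CPM and every other library at or under 74.6 CPM; Mylip is at 4.12 CPM in WT tumor 2.

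In 3 of the 27 genes, Pmvk, Fdps and Dhcr7, all 5 tumors were above all 3 normal livers, beside 142 of all tested genes (0.964%). With library totals in place of TMM factors, Fdps and Dhcr7 kept this property. The count of 14 genes with an unadjusted p under 0.05 became 4 without WT normal 2 (1.13% of all tested genes), 6 without nfib-KO normal 3 (2.49%) and 9 without WT tumor 1 (0.885%). It became 5 without both muscle-rich libraries (1.33% of all tested genes) and 5 without WT tumors 1 and 2 (0.538%), while the median log2 fold change stayed positive at 0.72 and 0.44. With nfib-KO normal 3 left out, alone or as a muscle-rich library, no nfib-KO normal liver remained. The tumor effect in these fits came from WT libraries alone, as in WT tumor over WT normal. Oncofetal markers summed over 4 genes to 47.3 and 259 CPM in nfib-KO tumors 2 and 3. In WT tumors 1, 2 and 3 the sum was 1049, 8117 and 16.4 CPM. It was 81.1 CPM in the nfib-KO normal liver and 9.01 to 33.7 CPM in WT normal livers, and none of the 4 was at 0 throughout. The sum hides single genes. Igf2 stood at 5757.5 CPM in WT tumor 2 but at 13.8 CPM in WT tumor 1, below nfib-KO tumor 3 (190 CPM) and nfib-KO normal 3 (41.1 CPM). Proliferation markers summed over 7 genes to 24.6 and 35.6 CPM in nfib-KO tumors and to 57.8, 62.8 and 24.3 CPM in WT tumors 1, 2 and 3, against 20.8 CPM in the nfib-KO normal liver and 30.6 and 18.5 CPM in WT normals 2 and 3. The 5 erythroid markers summed to 1793 CPM in WT normal 2, against 241 to 625 CPM in the other 7 libraries. Without WT tumor 3 and WT normal 3, the most alike pair, 15 of the 27 genes had an unadjusted p under 0.05 (2.30% of all tested genes) and the median was 0.90. Hepatocyte markers were highest in WT tumor 2 (70002 CPM) and lowest in WT normal 2 (35561 CPM), and 4 of the 8 had positive log2 fold changes, with a median of 0.03. Kupffer cell and macrophage markers summed over 6 genes to 132 and 387 CPM in nfib-KO tumors 2 and 3 and to 194, 33.9 and 453 CPM in WT tumors 1, 2 and 3, against 408 CPM in the nfib-KO normal liver and 242 and 463 CPM in WT normals 2 and 3. All 6 had negative values of tumor over normal, with a median of -0.59. Endothelial markers summed over 6 genes to 402 and 287 CPM in nfib-KO tumors and to 285, 143 and 573 CPM in WT tumors, against 279 CPM in the nfib-KO normal liver and 504 and 502 CPM in WT normal livers. All 6 were negative as well, with a median of -0.17. WT tumor 2, 1 of the 2 libraries highest in Sqle and Lss, was the lowest in both of these lists. None of the genes in these 3 lists was at 0 throughout. The part of all these markers in the result was not tested.

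Within WT liver, tumors stood higher than normal livers for 24 of the 27 genes, with a median log2 fold change of 0.71, beside 0.00 over all genes. With library totals, which shift the median of all genes to -0.15, the number was 20, and on log2(FPKM + 1) it was 19. By edgeR, 6 of the 27 had an unadjusted p under 0.05, beside 341 of all tested genes (2.32%). No tested gene had an edgeR adjusted p under 0.05 (lowest among the 27, 0.845). DESeq2 gave 10 of the 27 under the unadjusted threshold, beside 702 of the 17397 genes it tested (4.04%), and called none of them, although it called 15 other genes. The 6 were Lss at 1.71 ± 0.61, Sqle at 1.59 ± 0.54, Dhcr7 at 1.23 ± 0.39, Fdps at 1.21 ± 0.38, Mvd at 1.19 ± 0.44 and Fdft1 at 0.88 ± 0.35. Srebf2 was at 0.76 ± 0.36, Insig1 at 0.30 ± 0.29, Insig2 at -0.05 ± 0.25 and Mylip at -0.65 ± 0.69. In 10 of the 27 genes, Hmgcs1, Mvk, Pmvk, Mvd, Idi1, Fdps, Fdft1, Sqle, Msmo1 and Dhcr7, all 3 WT tumors were above both WT normal livers, beside 957 of all tested genes (6.5%). The median was 0.39 without WT normal 2 and 1.27 without WT normal 3, and 0 and 11 of the 27 genes had an unadjusted p under 0.05 in these fits, beside 0.803% and 2.31% of all tested genes. Without WT tumor 1 the count was 2 (0.878% of all tested genes). Without WT tumors 1 and 2 the median was 0.35, with a count of 0 (0.103%), and without WT tumor 3 and WT normal 3 it was 1.48, with a count of 15 (8.06%).

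Within nfib-KO liver, tumors were set against 1 normal library, whose own spread is unknown and was taken from the other groups. Here 25 of the 27 genes had positive log2 fold changes with a median of 0.58, beside 55.5% positive and a median of 0.03 over all genes. By edgeR none of the 27 had an unadjusted p under 0.05, beside 30 of all tested genes (0.204%), and no tested gene had an adjusted p under 0.05. DESeq2 and limma-voom also gave none of the 27 under the unadjusted threshold, beside 0.328% and 0.183% of the genes they tested. Neither called any gene. The edgeR count became 1 when WT tumor 3, WT normal 2 or WT normal 3 was left out (0.292%, 0.144% and 0.150% of all tested genes). It became 3 without WT tumors 1 and 2 (0.393%) and 3 without WT tumor 3 and WT normal 3 (0.259%), and the median was 0.38 without nfib-KO tumor 2. Among the values of smallest p were Sqle at 1.17 ± 0.73, Mvd at 1.15 ± 0.60, Hmgcs1 at 1.10 ± 0.63 and Fdps at 0.93 ± 0.52. Pmvk was at 0.66 ± 0.32 and Insig2 at 0.61 ± 0.35, while Insig1 was at 0.39 ± 0.39, Srebf2 at 0.28 ± 0.48 and Mylip at 0.00 ± 0.93.

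The tumor effect did not differ between the genotypes past the threshold for any of the 27 genes. The difference (nfib-KO effect minus WT effect) had a median of 0.00 over the 27 genes, beside 0.01 over all genes, and 14 positive values, against 17 with library totals. None of the 27 had an unadjusted p under 0.05, beside 47 of all tested genes (0.319%), and no tested gene was called by edgeR or DESeq2. Lss had the difference of largest size, -1.04 ± 0.96, followed by Insig2 at 0.66 ± 0.43, Mylip at 0.65 ± 1.18, Dhcr7 at -0.65 ± 0.62, Mvk at -0.61 ± 0.80 and Tm7sf2 at 0.60 ± 0.88. Srebf2 was at -0.48 ± 0.58, Sqle at -0.42 ± 0.86 and Insig1 at 0.10 ± 0.48. The median of 0.00 moved to 0.30 without WT normal 2 and to -0.53 without WT normal 3, and it was -0.68 without WT tumor 3 and WT normal 3. Without that pair 3 of the 27 genes had an unadjusted p under 0.05 (2.65% of all tested genes), and 1 had without WT tumor 3 alone (3.60%) or WT normal 3 alone (0.945%).

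**Figure D3:**
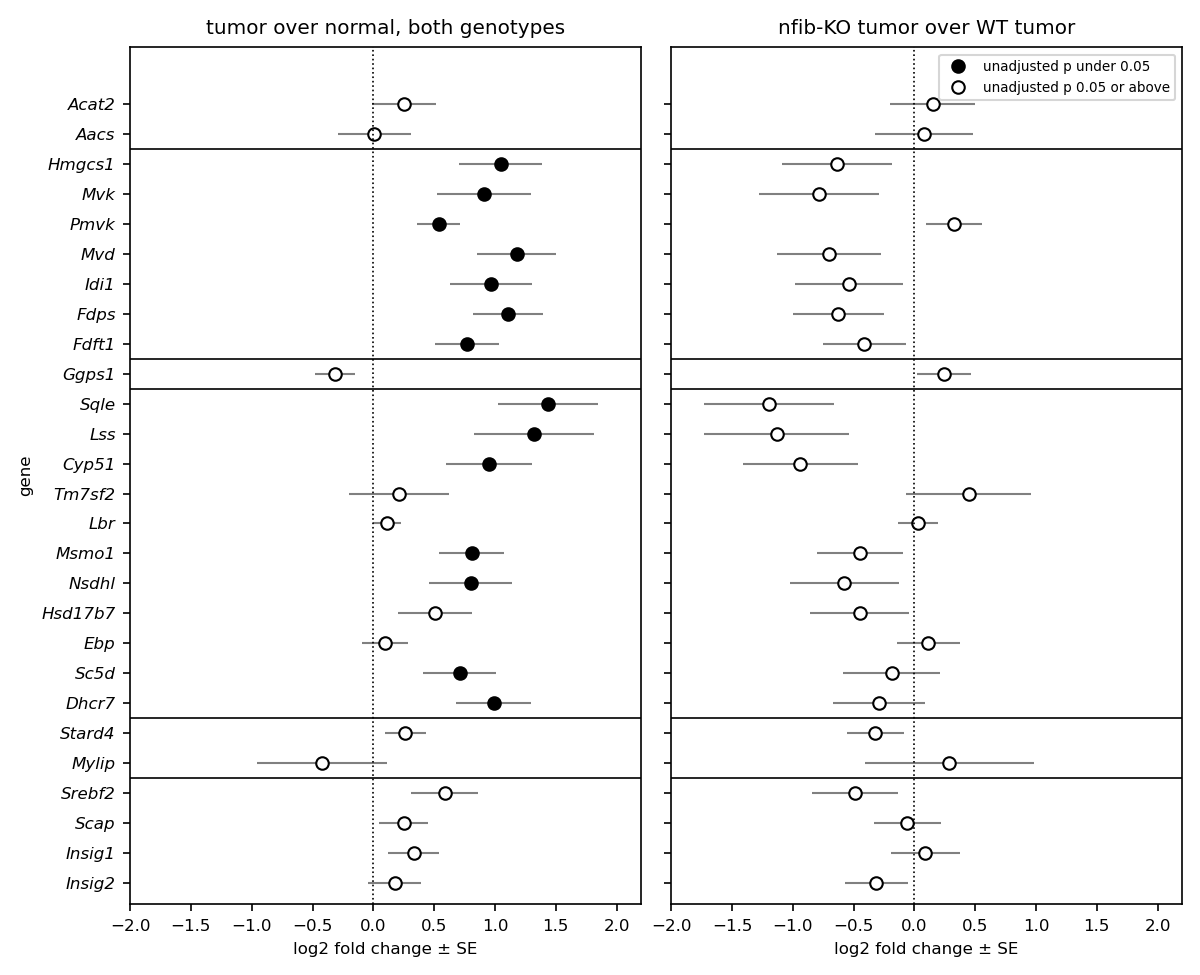
Points give the log2 fold change of each gene and lines its SE, for tumor over normal over both genotypes (left) and nfib-KO tumor over WT tumor (right). On the left 25 of 27 points lie right of 0 and 14 are filled (unadjusted p under 0.05); on the right 18 lie left of 0 and none is filled.

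Equal replicate numbers give 3 tumor and normal libraries side by side, although nothing in the labels ties an equal number to 1 animal. In nfib-KO 3, 24 of the 27 genes were higher in the tumor library, beside 52.5% of all tested genes, with a median log2 ratio of 0.39 and a range of -0.17 for Ggps1 to 1.24 for Sqle. In WT 2, 21 genes were higher (49.1% of all tested genes), with a median of 1.20, and 14 of the 27 were more than 2-fold higher, beside 11.6% of all tested genes. The ends there were -2.68 for Mylip and 2.64 for Sqle. In WT 3, 17 genes were higher (46.9% of all tested genes), with a median of 0.08. None of the 27 lay beyond 2-fold in either direction, and few genes did at all. Of all tested genes, 2.30% were more than 2-fold higher and 0.163% more than 2-fold lower. All 7 enzymes up to squalene were higher in the tumor library of each pair. With Sqle, Lss, Lbr, Msmo1, Nsdhl, Dhcr7 and Insig1, they made 14 genes higher in the tumor library of all 3 pairs, beside 1968 of all tested genes (13.4%). The size differed widely between pairs, as Fdps shows with 0.84 in nfib-KO 3, 1.74 in WT 2 and 0.20 in WT 3.

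**Figure D4:**
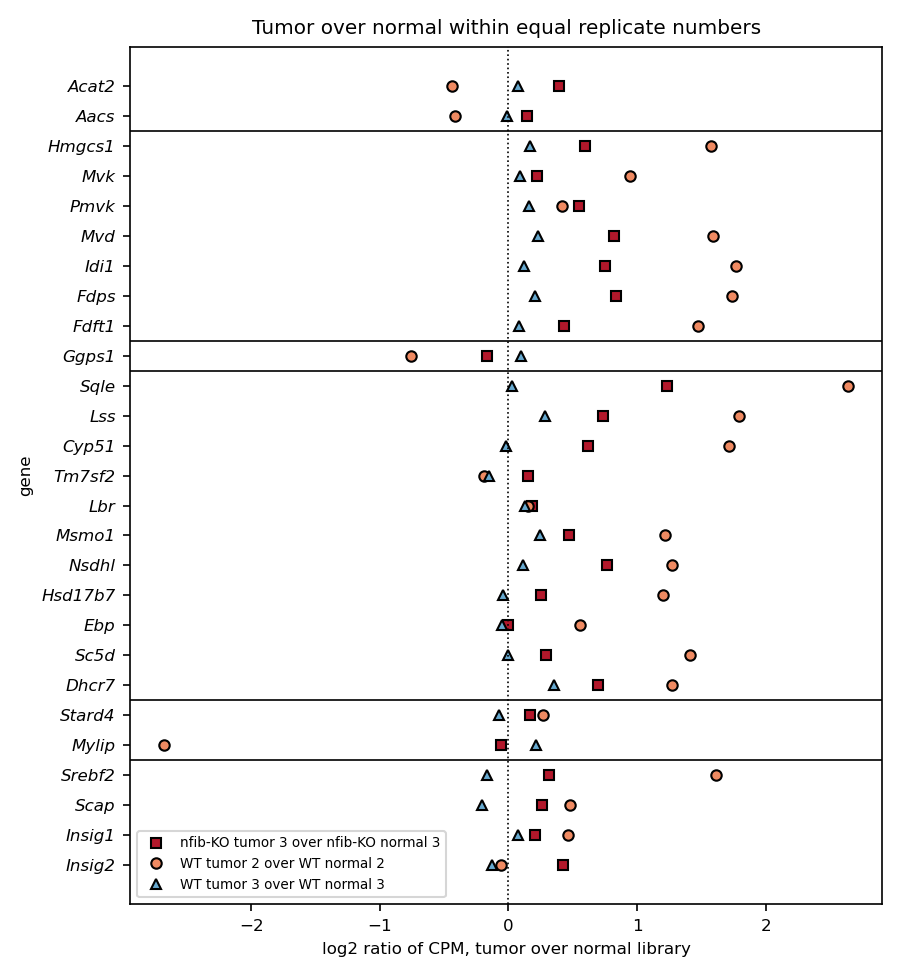
For each gene, symbols give the log2 ratio of CPM of the tumor library over the normal library with the same replicate number, with 1 library on each side and no error. WT 2 (circles) reaches 2.64 for Sqle and -2.68 for Mylip, nfib-KO 3 (squares) reaches 1.24, and WT 3 (triangles) stays between -0.21 and 0.36.

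Between tumors, most of the 27 genes had lower values in those labelled nfib-KO than in WT tumors, with none of them past the threshold. The median log2 fold change (nfib-KO tumor over WT tumor) was -0.32, beside 0.00 over all genes, and 18 of the 27 values were negative. By edgeR none of the 27 had an unadjusted p under 0.05, beside 430 of all tested genes (2.92%). No tested gene had an edgeR adjusted p under 0.05 (lowest among the 27, 0.888). DESeq2 gave 1 of the 27 under the unadjusted threshold (4.32% of the genes it tested) and called none of them, although it called 4 other genes. Sqle was at -1.20 ± 0.53, Lss at -1.13 ± 0.60, Cyp51 at -0.94 ± 0.47, Mvk at -0.79 ± 0.49, Mvd at -0.71 ± 0.43 and Fdps at -0.63 ± 0.38. Srebf2 was at -0.49 ± 0.36, Insig2 at -0.31 ± 0.26, Insig1 at 0.09 ± 0.28 and Mylip at 0.29 ± 0.69. In 6 genes, Idi1, Sqle, Cyp51, Msmo1, Nsdhl and Hsd17b7, both nfib-KO tumors were below all 3 WT tumors, beside 1113 of all tested genes (7.56%). For Cyp51 the values were 136 and 103 CPM in nfib-KO tumors 2 and 3, against 315, 214 and 159 CPM in WT tumors 1, 2 and 3. With library totals in place of TMM factors, Idi1, Sqle and Cyp51 were without overlap. Without WT tumor 3 the median was -0.49 and 4 of the 27 genes had an unadjusted p under 0.05, beside 1631 of all tested genes (11.1%). The count was 5 without WT tumor 3 and WT normal 3 (8.53% of all tested genes), and 1 when WT normal 2 or WT normal 3 was left out (1.92% and 1.94%). Without nfib-KO tumor 2 the median was -0.52. Without both WT tumors 1 and 2, the median was 0.00 and 14 of the 27 values were positive, Lss among them at 0.46 and Fdps at 0.10, and 1 gene had an unadjusted p under 0.05 (1.58% of all tested genes). WT tumors 1 and 2 are also the libraries with the highest summed oncofetal and proliferation markers, whose part was not tested. Single markers differ, as Igf2 stood at 13.8 CPM in WT tumor 1 against 190 CPM in nfib-KO tumor 3.

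Over both tissues, with tissue as a second term, the libraries labelled nfib-KO had a median log2 fold change of -0.31 over WT, beside -0.02 over all genes, and 18 of the 27 values were negative. By edgeR 3 of the 27 had an unadjusted p under 0.05, all lower in nfib-KO, beside 1009 of all tested genes (6.85%). No tested gene had an edgeR adjusted p under 0.05 (lowest among the 27, 0.705). DESeq2 also gave 3 of the 27 under the unadjusted threshold (7.67% of the genes it tested) and called none of them, although it called 39 other genes. The 3 were Sqle at -1.04 ± 0.40, Cyp51 at -0.87 ± 0.35 and Insig2 at -0.54 ± 0.22. Insig2 stood at 108 and 84.8 CPM in nfib-KO tumors and 63.3 CPM in the nfib-KO normal liver, against 128, 98.4 and 134 CPM in WT tumors and 103 and 146 CPM in WT normal livers. The nfib-KO normal liver was the lowest, and nfib-KO tumor 2 lay above WT tumor 2. Mvd was at -0.69 ± 0.32, Hmgcs1 at -0.67 ± 0.34, Stard4 at -0.36 ± 0.17, Srebf2 at -0.31 ± 0.27, Mylip at 0.07 ± 0.54 and Insig1 at 0.05 ± 0.21. Without WT tumors 1 and 2 the median was -0.06, and without WT normal 3 it was -0.17. Without both muscle-rich libraries, both of which carry the label nfib-KO, it was -0.52. No nfib-KO normal liver was left there, so that fit compared nfib-KO tumor 3 with the WT tumors and did not cover both tissues. The count of 3 genes was 0 when WT tumor 1, nfib-KO tumor 3, WT normal 3 or nfib-KO normal 3 was left out, beside 5.54%, 3.60%, 5.80% and 2.65% of all tested genes. It was 1 without WT tumor 2 (8.19% of all tested genes), 2 without nfib-KO tumor 2 (6.41%), 6 without WT tumor 3 (9.51%) and 8 without WT normal 2 (5.19%). The fit without nfib-KO normal 3 likewise compared tumors alone. Neutrophil markers summed to 16.9 and 248 CPM in nfib-KO tumors 2 and 3 and 229 CPM in the nfib-KO normal liver, against 26.4 to 35.3 CPM in the 5 WT libraries, and their part was not tested.

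Between normal livers, 1 nfib-KO library stood against 2 WT libraries that lay far apart, with 30.9 CPM of Sqle in nfib-KO normal 3 against 32.9 and 73.0 CPM in WT normals 2 and 3. The median log2 fold change (nfib-KO normal over WT normal) was -0.20, beside -0.03 over all genes, and 22 of the 27 values were negative. The other 5 were positive, against 8 with RLE factors in place of TMM. By edgeR 1 of the 27, Insig2 at -0.98 ± 0.36, had an unadjusted p under 0.05, beside 207 of all tested genes (1.41%). No tested gene had an edgeR adjusted p under 0.05. DESeq2 also gave 1 under the unadjusted threshold, beside 307 of the 17397 genes it tested (1.76%). It called 1 gene, not among the 27. Nsdhl was at -0.81 ± 0.62, Sqle at -0.78 ± 0.72, Cyp51 at -0.74 ± 0.64, Hmgcs1 at -0.72 ± 0.62, Mvd at -0.66 ± 0.59 and Stard4 at -0.42 ± 0.32. Mylip was at -0.36 ± 0.95, and Srebf2 and Insig1 both at -0.01. Without WT normal 3 the median of the 27 was 0.09, with 0 under the unadjusted threshold (2.17% of all tested genes), and without WT normal 2 it was -0.42, with 3 (0.549%). Insig2 also lost its unadjusted p under 0.05 when WT tumor 1, nfib-KO tumor 2 or nfib-KO tumor 3 was left out.

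The authors' deposited tables set 1 library against 1 and hold genes with p under 0.05 without adjustment and at least a 2-fold change, with ratios that run tumor over normal. In the authors' deposited table of nfib-KO tumor 3 over nfib-KO normal 3, Sqle alone of the 27 genes is among the 317 listed (1.45% of all genes), with a ratio of 2.33 and a q-value of 1.64e-05. In the authors' deposited table of WT tumor 2 over WT normal 2, 3 of the 27 are among the 1001 listed (4.58%), Sqle with a ratio of 6.25, Idi1 with 3.43 and Mylip with 0.157. In the authors' deposited table of WT tumor 3 over WT normal 3, none of the 27 is among the 270 listed (1.23%). The authors' deposited table whose numerator is WT tumor 1 gives, in its header, a WT normal library of the same number as denominator, which matches no sample used here, whereas the table's title names nfib-KO tumor 2. It lists 785 genes (3.59%), 10 of the 27 among them and all higher in the tumor, with ratios from 2.30 for Nsdhl to 3.78 for Lss. The other 8 in the authors' deposited table are Sqle, Dhcr7, Cyp51, Fdps, Idi1, Mvk, Hmgcs1 and Mvd, and 3 of the 10, Lss, Sqle and Dhcr7, have a q-value under 0.05 there. With 1 library on each side, these values compare libraries and not conditions.

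Genes around the pathway, in 4 further lists, had medians nearer 0 for tumor over normal liver than the 27 genes. Of 13 genes for SREBP processing and sterol sensing, 7 had positive log2 fold changes, with a median of 0.03 and none with an unadjusted p under 0.05. Among the values of smallest p were Mbtps2, the site-2 protease that frees SREBP, at 0.39 ± 0.18, and Erlin1 at 0.56 ± 0.45. Of 11 genes of the isoprenoid branches, 6 were positive with a median of 0.02, and Fntb, a farnesyltransferase subunit, was at 0.62 ± 0.32. Of 12 genes for sterol transport, storage and export, 5 were positive with a median of -0.02. Soat2, which esterifies cholesterol, was at 0.68 ± 0.49, with 241 CPM in WT tumor 2 against 54.5 to 79.6 CPM in the other 7 libraries. Of 11 other genes known as SREBP targets, 9 were positive with a median of 0.31. Among them 1, Pnpla3, had an unadjusted p under 0.05 at 1.13 ± 0.35, beside 1.76% of all tested genes. Tmem97, a sterol-regulated membrane protein, was at 1.11 ± 0.62, with 270 CPM in WT tumor 2 against 32.7 to 85.1 CPM in the other 7 libraries.

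In nfib-KO against WT liver over both tissues, most of the other SREBP targets had positive values, while most of the 27 genes had negative ones. Of the 11, 7 were positive with a median log2 fold change of 0.16. Beside 6.85% of all tested genes, 2 of the 11 had an unadjusted p under 0.05 by edgeR. These were Acss2, which makes acetyl-CoA from acetate, at 1.02 ± 0.42, and Fasn, the fatty acid synthase, at 0.88 ± 0.35 (edgeR adjusted p = 0.714 for both). Fasn stood at 575 and 835 CPM in nfib-KO tumors and 598 CPM in the nfib-KO normal liver, against 650.2, 219.9 and 317 CPM in WT tumors and 299.5 and 318 CPM in WT normal livers. WT tumor 1 was within the nfib-KO values. Acss2 stood at 266 and 165 CPM in nfib-KO tumors and 125 CPM in the nfib-KO normal liver, against 117, 35.4 and 100.5 CPM in WT tumors and 95.1 and 103 CPM in WT normal livers. Every nfib-KO library was above every WT library, beside 511 of all tested genes with the same property. Between tumors alone Acss2 was at 1.35 ± 0.50. Acly, the citrate lyase, was at 0.43 ± 0.24, and Srebf1, which encodes the SREBP best known for fatty acid genes, at 0.28 ± 0.18. Of the sterol sensing list, Rnf139 was at 0.31 ± 0.11. It was the 1 of 13 with an unadjusted p under 0.05, a share near the 6.85% of all tested genes. Of the other transport genes, Vldlr was at 1.21 ± 0.61, with 1.61 CPM in WT tumor 2.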

How the data were processed

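RNA was isolated with a mirVana kit and made into TruSeq Stranded mRNA libraries, per the labels' protocols. The authors deposited raw counts per gene and FPKM values per gene for 8 libraries; Bowtie 0.12.2 and the builds mm8 and mm9 are named in the submitters' processing notes without a role. The counter, the annotation and the use of strand are not given in the sources used here. The authors also deposited 1-against-1 tables with a ratio (fold change), its log2, a p-value and a q-value, restricted to genes past a p of 0.05 and a fold change of 2. A further 16 columns of per-library values in the deposited tables were not used, 2 of which match no sample.

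Counts were filtered with a minimum count of 10, scaled with TMM factors and fitted with edgeR 4.0.16 (quasi-likelihood test, robust, R 4.3.3). Tumor against normal and nfib-KO against WT used genotype and tissue as terms. The other 5 comparisons used the 4 groups in a single fit with a common biological coefficient of variation of 0.440, and the single nfib-KO normal library was assumed to vary like the others. P-values were adjusted over all 14726 tested genes (Benjamini-Hochberg, threshold 0.05). SE values were derived from the log2 fold change and the F statistic, and CPM in the text is scaled with TMM factors. Ratios of all genes within a pair used 0.5 CPM as pseudocount.

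Alternatives were DESeq2 1.42.0, limma-voom (limma 3.58.1), other scalings, no filter, limma on log2(FPKM + 1) and log2(FPKM + 0.1) for genes with a mean FPKM of at least 1, leaving out libraries, and a replicate block. Fits without WT tumors 1 and 2, and without WT tumor 3 and WT normal 3, were chosen after seeing the data. The fits were tested on simulated data. All 27 genes are named for tumor against normal. Elsewhere the 6 genes of smallest p, Srebf2, Insig1, Insig2, Mylip, Sqle, genes without overlap and genes in the authors' tables are named, and up to 3 genes of smallest p per further list, of which 1 is not reported here. The gene sets and lists were chosen with earlier results of these data known. Gene symbols were matched to RefSeq promoter windows (GRCm38.p6), which is not a build of the files.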

Additional observations from a re-analysis of the deposited data

How the results depend on the processing

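No alternative gave any of the 27 genes an adjusted p under 0.05. Of 84 fold changes of single genes, 55 kept their sign under every alternative and 29 changed it under at least 1. The cause of these changes was not tested. Fewer libraries alone can lower a count of unadjusted p-values. Counts of the 27 genes can also move with those of all genes. Without WT tumor 3 the count for tumor over normal was 15, beside 6.70% of all tested genes, against 1.76% with all libraries.

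With library totals or FPKM the median of all genes shifted by over 0.1 in 3 of the 7 comparisons. It was -0.15, -0.12 and -0.14 (library totals, FPKM + 1, FPKM + 0.1) for WT tumor over WT normal, where the median of the 27 genes relative to it was 0.70, 0.63 and 0.70. It was -0.20, -0.13 and -0.15 for nfib-KO normal over WT normal, with the 27 genes at -0.15, -0.16 and -0.18 relative to it. For the difference of tumor effects it was 0.23, 0.16 and 0.19, with the 27 genes at -0.06, -0.03 and -0.06 relative to it.

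The replicate block took equal numbers as pairs. Its count of genes with an unadjusted p under 0.05 was 3 for tumor over normal, beside 1.78% of all tested genes. For WT tumor over WT normal the count was 0, beside 1.09%. The medians were 0.47 and 0.58, and Aacs was at -0.094 and Tm7sf2 at -0.064 for tumor over normal. Deviations of same-numbered WT libraries correlated at 0.20 and 0.24. With 2 WT normal livers the deviations of 1 mirror those of the other, which fixes the other-numbered values at -0.20 and -0.24. There is thus no independent value to set beside them, and nfib-KO normal has no other library to deviate from. This check cannot decide on a pairing. The numbers were not taken as pairs because the labels do not state a pairing. Libraries numbered nfib-KO 3 were the most alike (r 0.982) after those numbered WT 3.

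Leaving out 1 library at a time, the count with an unadjusted p under 0.05 ran from 4 to 15 for tumor over normal, 0 to 8 for nfib-KO over WT, 0 to 4 for nfib-KO tumor over WT tumor, 0 to 11 for WT tumor over WT normal, 0 to 3 for nfib-KO normal over WT normal, and 0 to 1 for nfib-KO tumor over nfib-KO normal and for the difference of tumor effects. The median ran from 0.39 to 1.27 for WT tumor over WT normal and from -0.42 to 0.086 for nfib-KO normal over WT normal. Sign changes for tumor over normal were those of Aacs (-0.22 to 0.15), Tm7sf2 (-0.0071 to 0.67), Ebp (-0.039 to 0.23) and Insig2 (-0.036 to 0.40). For nfib-KO over WT, Mylip ran from -0.26 to 0.52 and Insig1 from -0.062 to 0.16. For nfib-KO tumor over WT tumor, Mylip ran from -0.20 to 1.06 and Insig1 from -0.11 to 0.23. Insig2 ran from -0.28 to 0.24 for WT tumor over WT normal, and Mylip from -0.073 to 0.040 for nfib-KO tumor over nfib-KO normal. For nfib-KO normal over WT normal, Srebf2 ran from -0.38 to 0.51, Insig1 from -0.30 to 0.36, Cyp51 from -1.26 to 0.068 and Nsdhl from -1.37 to 0.13. For the difference of tumor effects, Insig1 ran from -0.29 to 0.38, Sqle from -1.13 to 0.046 and Tm7sf2 from -0.17 to 1.07. No comparison with nfib-KO normal could be fitted without nfib-KO normal 3. In that setting tumor over normal rested on WT libraries alone, and nfib-KO over WT on tumors alone.

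Without both muscle-rich libraries the count was 5 for tumor over normal and 0 for nfib-KO over WT. Insig2 was at -0.035 for tumor over normal, and Insig1 at -0.11 for nfib-KO over WT and for nfib-KO tumor over WT tumor.

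Without WT tumors 1 and 2 the count was 5 for tumor over normal, 1 for nfib-KO tumor over WT tumor, 0 for WT tumor over WT normal and 3 for nfib-KO tumor over nfib-KO normal. For tumor over normal, Aacs was at -0.28 and Mylip at 0.12. For nfib-KO over WT, Mylip was at -0.48 and Srebf2 at 0.026. For nfib-KO tumor over WT tumor, the median was 0.0017, Mvk was at 0.089, Fdps at 0.10, Lss at 0.46, Mylip at -0.61 and Srebf2 at 0.043. For WT tumor over WT normal, Mylip was at 0.24 and Insig2 at 0.13. For nfib-KO normal over WT normal, Srebf2 was at 0.0095 and Insig1 at 0.0081, and for nfib-KO tumor over nfib-KO normal Mylip was at -0.014. For the difference of tumor effects, Mvk was at 0.25, Sqle at 0.64, Lss at 0.54, Dhcr7 at 0.093, Mylip at -0.26, Srebf2 at 0.034 and Insig1 at -0.0064.

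Without WT tumor 3 and WT normal 3 the count was 5 for nfib-KO tumor over WT tumor, 15 for WT tumor over WT normal, 0 for nfib-KO normal over WT normal, and 3 for nfib-KO tumor over nfib-KO normal and for the difference of tumor effects. The median was 0.90 for tumor over normal, 1.48 for WT tumor over WT normal, 0.073 for nfib-KO normal over WT normal and -0.68 for the difference of tumor effects. Aacs was at -0.085 for tumor over normal and Insig2 at 0.14 for WT tumor over WT normal. For nfib-KO normal over WT normal, Cyp51 was at 0.056, Nsdhl at 0.11, Srebf2 at 0.50 and Insig1 at 0.35, and Insig1 was at -0.23 for the difference of tumor effects.

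Among tools and scalings, the count was 1 by limma-voom for nfib-KO over WT (5.10% of all tested genes). For nfib-KO tumor over WT tumor it was 1 by DESeq2 (4.32%) and by library totals (2.54%). For WT tumor over WT normal it was 10 by DESeq2 (4.04%) and by limma-voom (1.15%). For tumor over normal, Aacs was at -0.027 by limma-voom, -0.11 by library totals, -0.10 on log2(FPKM + 1) and -0.11 on log2(FPKM + 0.1). For nfib-KO tumor over nfib-KO normal, Mylip was at -0.015 by DESeq2, -0.014 by RLE factors and -0.00048 without a filter. For nfib-KO normal over WT normal, Srebf2 was at 0.0085 by DESeq2, 0.0082 by RLE factors and 0.070 by limma-voom, and Insig1 at 0.0077, 0.0073 and 0.040.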

Other observations

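Ratios between genes of the set, chosen after the values were seen and given without a test, showed a different order of the libraries from the levels. The CPM ratio of Insig1 to Insig2, the isoforms that hold back SREBP, was 2.93 and 2.95 in nfib-KO tumors 2 and 3 and 3.42 in nfib-KO normal 3, against 2.25, 2.38 and 2.08 in WT tumors 1, 2 and 3 and 1.65 and 1.81 in WT normals 2 and 3. All 3 nfib-KO libraries lay above all 5 WT libraries. Such a split is not rare among single genes. Of all tested genes, 511 had every nfib-KO library above every WT library, and 407 had every one below. How many other ratios between genes of the set split the libraries in this way was not counted.

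The CPM ratio of Sqle to Fdft1, neighbouring enzymes that use and make squalene, was 0.520 and 0.689 in nfib-KO tumors 2 and 3 and 1.07, 1.27 and 0.639 in WT tumors 1, 2 and 3. It was 0.395 in nfib-KO normal 3, against 0.566 and 0.663 in WT normals 2 and 3. WT tumors 1 and 2 stood apart from the other 6 libraries.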
